A study of Mus musculus with 16 samples.

Results

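The 9 genes described here encode the core proteins that write and remove DNA methylation in mouse cells: Dnmt1, Dnmt3a, Dnmt3b, Dnmt3l, Uhrf1, Tet1, Tet2, Tet3 and Tdg. They were chosen by name, and the expression table lists 32 RefSeq transcripts for them, of 33701 transcripts and 24169 genes in all. Embryoid bodies (EBs) were grown from the R1 mouse embryonic stem (ES) cell line for 4 days in medium without Lif. RNA was taken on the day that 2 μM retinoic acid (RA) was added (day 0) and after 4 days of RA (day 4), from 2 repeats of the procedure per day (RNA 1 and RNA 2). Every RNA was split between 4 vials, with spike-in mix 1, 2 or 3 or with none of these mixes (called mix 4), which gave 16 libraries of total RNA depleted of ribosomal RNA. No genotype other than R1 and no agent other than RA is given, and day 4 EBs are also 4 days older, so RA and time in culture cannot be told apart. A single ES cell line was used and the EBs are a mixture of cells.

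Most methylated cytosines of mammalian DNA stand in CpG dinucleotides. DNMT3A and DNMT3B place new methyl groups there, helped by the catalytically inactive DNMT3L, while DNMT1, brought by UHRF1 to hemimethylated DNA behind the replication fork, copies the pattern to the new strand. TET proteins oxidise methylcytosine, and TDG excises oxidised forms so that base excision repair can restore an unmodified cytosine. ES cells are known for strong expression of de novo methyltransferases and of Tet1 and Tet2. DNA methylation itself was not measured in these libraries, so the values are RNA levels only.

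All levels are given in FPKM (fragments per kilobase of transcript, scaled to the mapped fragments of the library), the deposited unit. This unit takes the length of a transcript into account but not its GC content, which limits comparisons of levels between genes. Gene levels are sums over the isoforms of a gene. Before the results, 2 properties of the libraries need to be stated. The vials of mixes 3 and 4 of day 0 RNA 2 stood apart from the vials of mixes 1 and 2 of the same RNA: of 11584 genes with a mean of at least 1 FPKM, 34.7% differed by 2-fold or more between these pairs of vials, and 30.7% were lower by that amount. In the other 3 RNA samples the same share lay between 0.216% and 0.363%. The difference followed the GC content of the transcripts (Spearman's rho -0.864 over 11428 genes). With genes divided into 5 equal groups by GC content, its median was 0.71 on the log2 scale in the group with the lowest GC content and -2.04 in the group with the highest. The difference between the days followed GC content as well (rho -0.51 over the same genes, which share the same libraries), with a median log2 difference of 0.52 in the lowest and -1.36 in the highest group. Leaving out the mix 3 and mix 4 vials of day 0 RNA 2 did not remove this trend (rho -0.59). The 9 genes, the main isoforms of Dnmt1, Uhrf1, Dnmt3a and Dnmt3b that passed and the counts of each list are therefore also given without these 2 vials and with FPKM corrected for GC content, where the correction can also take away differences between the days that are biological.

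**Figure D1:**
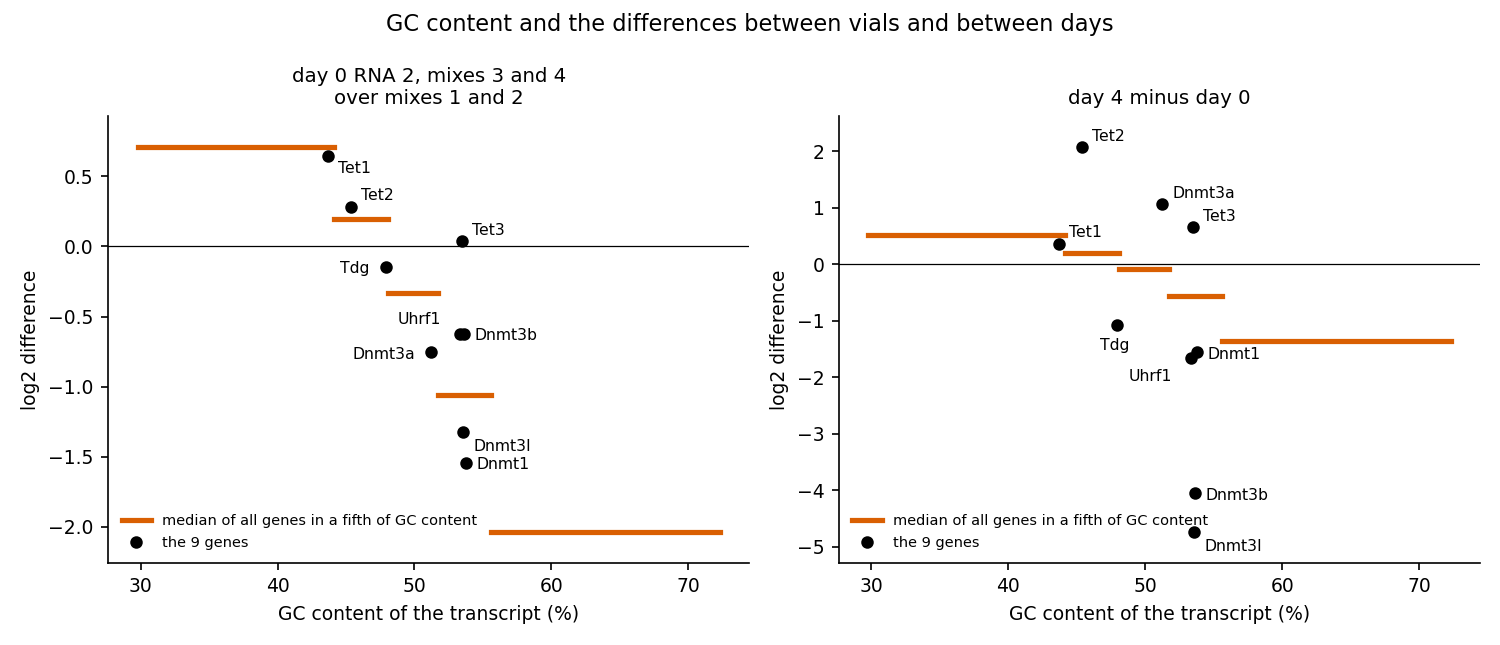
Difference on the log2 scale (vertical axes) against GC content of the most abundant matched transcript in percent (horizontal axes), for mixes 3 and 4 over mixes 1 and 2 of day 0 RNA 2 (left) and for day 4 minus day 0 (right). Orange lines are medians of all genes in each of the 5 GC groups, which fall from 0.71 to -2.04 and from 0.52 to -1.36, and black points are the 9 genes. On the right Dnmt3b and Dnmt3l lay far below, and Tet2, Dnmt3a and Tet3 above, the median of their GC group.

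The 9 genes lay in 4 of the 5 GC groups. Tet1 had the lowest GC content at 43.7%, Tet2 and Tdg had 45.3% and 47.9%, Dnmt3a had 51.2%, and Dnmt1, Dnmt3b, Dnmt3l, Tet3 and Uhrf1 lay between 53.3% and 53.8%. Of the 9, 2 passed 2-fold between the vials of day 0 RNA 2, Dnmt1 and Dnmt3l, and none did so in the other 3 RNA samples. The share among all genes was the 34.7% given above.

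The labelled cell type is embryonic stem cells. The summed level of 10 pluripotency markers was 207 and 151 FPKM in the day 0 RNAs and 13.8 and 9.08 FPKM in the day 4 RNAs, and 9 of the 10 passed the test as lower at day 4. Pou5f1, which encodes the transcription factor OCT4, went from 87.3 and 37.2 FPKM to 1.03 and 0.693 FPKM. At day 4 the label ES cells therefore did not match the defining markers. The count was 9 of 10 as well without the 2 vials and with the GC correction. Over all genes tested, 16% were called higher and 14.5% lower on all vials. The shares were 27.1% and 33.6% without the 2 vials, and 27.5% and 24.3% with the GC correction. Other marker lists were mixed. Of 6 fibroblast markers 3 were higher (Col3a1, Dcn and Col1a2) and Thy1 was lower, while Col1a1 and Pdgfrb had log2 differences of -2.54 and -1.71 that did not pass on all vials. Without the 2 vials and with the GC correction 3 were higher and 3 lower. Their sum, 40.4 and 15.2 FPKM at day 0, then 195 and 183 FPKM at day 4, rested on Col3a1 (163 and 152 FPKM at day 4). In primitive endoderm markers 5 of 9 were higher and 1 was lower (6 and 2 without the 2 vials, 5 and 2 with the GC correction). Gata6 went from 6.25 and 6.47 to 53.2 and 55.7 FPKM, and Afp had a log2 difference of 2.74. The lower gene, Col4a1, went from 132 and 47.3 to 11.8 and 10.6 FPKM. The sum of this list was 154 and 66.6 FPKM at day 0, then 95.5 and 94.3 FPKM at day 4. Of 10 neural markers 3 were higher and 4 lower (4 and 4 without the 2 vials, 4 and 3 with the GC correction), and their sum was 52.8 and 36.0 FPKM at day 0, then 29.2 and 30.4 FPKM at day 4. Of 8 mesoderm and blood markers 1 was higher and 4 were lower (2 and 4 without the 2 vials, 3 and 4 with the GC correction). Mesp1 was listed at 0 in both day 4 RNAs. T (Brachyury) held 72.7 and 61.2 FPKM at day 0, then 0.0238 and 0.0143 FPKM at day 4. The higher gene was Hba-x, a blood marker, with 0.244 and 0.191 FPKM, then 12.1 and 6.71 FPKM. Hbb-bh1 had a log2 difference of 1.07 that did not pass on all vials. The part of these shifts in cell type in the values of the 9 genes was not tested, and in these bulk samples fewer cells of a type and less RNA per cell cannot be told apart.

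Start sites were taken from RefSeq and its matches in GENCODE, both on GRCm38 (mm10). The windows that follow are shown because they lie at starts of the 3 genes of these 9 with the largest change (Dnmt3b, Dnmt3l and Tet2) and of Dnmt3a, whose isoforms start far apart. The gene Dnmt3a (Entrez Gene 13435) lies on the plus strand of chromosome 12 from 3801559 to 3914443. Its long transcripts NM_007872 and NM_001271753 start at 3807030 and 3807160 and code for 908 residues, and the short transcript NM_153743, known as Dnmt3a2, starts inside the gene at 3891744, 84714 bases after the first of them, and codes for 689 residues. Dnmt3b (13436) lies on chromosome 2, plus strand, from 153649411 to 153687730. Dnmt3l (54427) lies on chromosome 10, plus strand, from 78042287 to 78063622, and Tet2 (214133) on chromosome 3, minus strand, from 133463677 to 133545136. Each window holds the 250 bases before a RefSeq start of build GRCm38.p6, 5′ to 3′ on the strand of the gene, in lower case with each CpG in capitals.
Dnmt3a, start of the long transcript NM_001271753, chr12:3806910-3807159, plus strand: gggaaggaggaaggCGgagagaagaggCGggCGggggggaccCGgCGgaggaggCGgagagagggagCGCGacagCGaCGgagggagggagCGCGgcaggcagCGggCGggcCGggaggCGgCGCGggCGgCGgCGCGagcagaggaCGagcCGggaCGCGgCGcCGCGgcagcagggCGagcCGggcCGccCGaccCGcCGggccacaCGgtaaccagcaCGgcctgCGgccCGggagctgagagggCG
Dnmt3a, start of the short transcript NM_153743, chr12:3891494-3891743, plus strand: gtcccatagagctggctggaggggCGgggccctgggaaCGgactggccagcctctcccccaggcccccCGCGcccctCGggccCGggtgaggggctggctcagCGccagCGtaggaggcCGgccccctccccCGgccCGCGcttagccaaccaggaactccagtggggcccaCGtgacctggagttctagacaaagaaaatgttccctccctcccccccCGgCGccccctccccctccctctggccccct
Dnmt3b, chr2:153649199-153649448, plus strand: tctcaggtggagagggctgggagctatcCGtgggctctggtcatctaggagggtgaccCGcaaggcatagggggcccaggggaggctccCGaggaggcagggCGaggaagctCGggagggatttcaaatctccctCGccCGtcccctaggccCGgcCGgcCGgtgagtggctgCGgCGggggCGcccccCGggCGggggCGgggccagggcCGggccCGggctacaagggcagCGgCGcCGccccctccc
Dnmt3l, start of NM_019448, chr10:78049592-78049841, plus strand: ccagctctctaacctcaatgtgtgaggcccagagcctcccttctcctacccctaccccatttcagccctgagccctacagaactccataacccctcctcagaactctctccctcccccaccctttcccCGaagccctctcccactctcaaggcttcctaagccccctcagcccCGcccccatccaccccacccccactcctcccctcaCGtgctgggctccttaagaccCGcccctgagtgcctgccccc
Tet2, chr3:133544391-133544640, minus strand: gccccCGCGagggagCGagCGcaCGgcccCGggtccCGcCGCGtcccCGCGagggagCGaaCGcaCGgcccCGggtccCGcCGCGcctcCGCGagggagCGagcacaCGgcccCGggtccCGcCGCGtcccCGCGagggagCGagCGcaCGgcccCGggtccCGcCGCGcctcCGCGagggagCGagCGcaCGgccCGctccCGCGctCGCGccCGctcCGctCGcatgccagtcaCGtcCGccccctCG

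CpG (the letters CG, which read the same on both strands) was counted in these windows and in all 32851 windows of the same length, of which 92.1% held at least 1 and the median held 6. The Tet2 window held 51, a number reached by 0.067% of all windows. The window before the Dnmt3a transcript NM_001271753 held 40 (reached by 1.31% of windows) and that before NM_153743 held 15 (27.3%). Dnmt3b held 21 (16.4%) and Dnmt3l 4 (62.2%). The counts describe the reference sequence only.

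Taking the 9 genes together, Dnmt1, Uhrf1, Dnmt3b and Dnmt3l were lower at day 4, and Dnmt3a and Tet2 were higher. On all vials 6 of the 9 passed the test (limma on log2(FPKM + 0.1), 2 RNA samples against 2, Benjamini-Hochberg adjusted p of at most 0.05 over 20496 genes). Of these, 2 were higher at day 4 and 4 were lower, where 16% of all genes tested were called higher and 14.5% lower. Without the mix 3 and mix 4 vials of day 0 RNA 2, 3 were higher and 5 lower, beside 27.1% and 33.6% of all genes. With FPKM corrected for GC content, again 3 were higher and 5 lower, beside 27.5% and 24.3%, but the third higher gene was Tet3 in place of Tet1. With the RNA number as a replicate block, 2 were higher and 5 lower, beside 22.5% and 29.1%. The median log2 difference of the 9 genes was -1.07, and that of all genes -0.02. Leaving out either day 4 RNA sample gave 0 calls by limma among the 9 and among all genes (4935 and 4716 genes at an unadjusted p of at most 0.05), where the remaining sample is assumed to vary like those of day 0. The p-values measure the spread between 2 repeats per day as limma pools it over genes, since 2 against 2 samples alone cannot give an exact two-sided permutation p below 0.333.

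**Figure D2:**
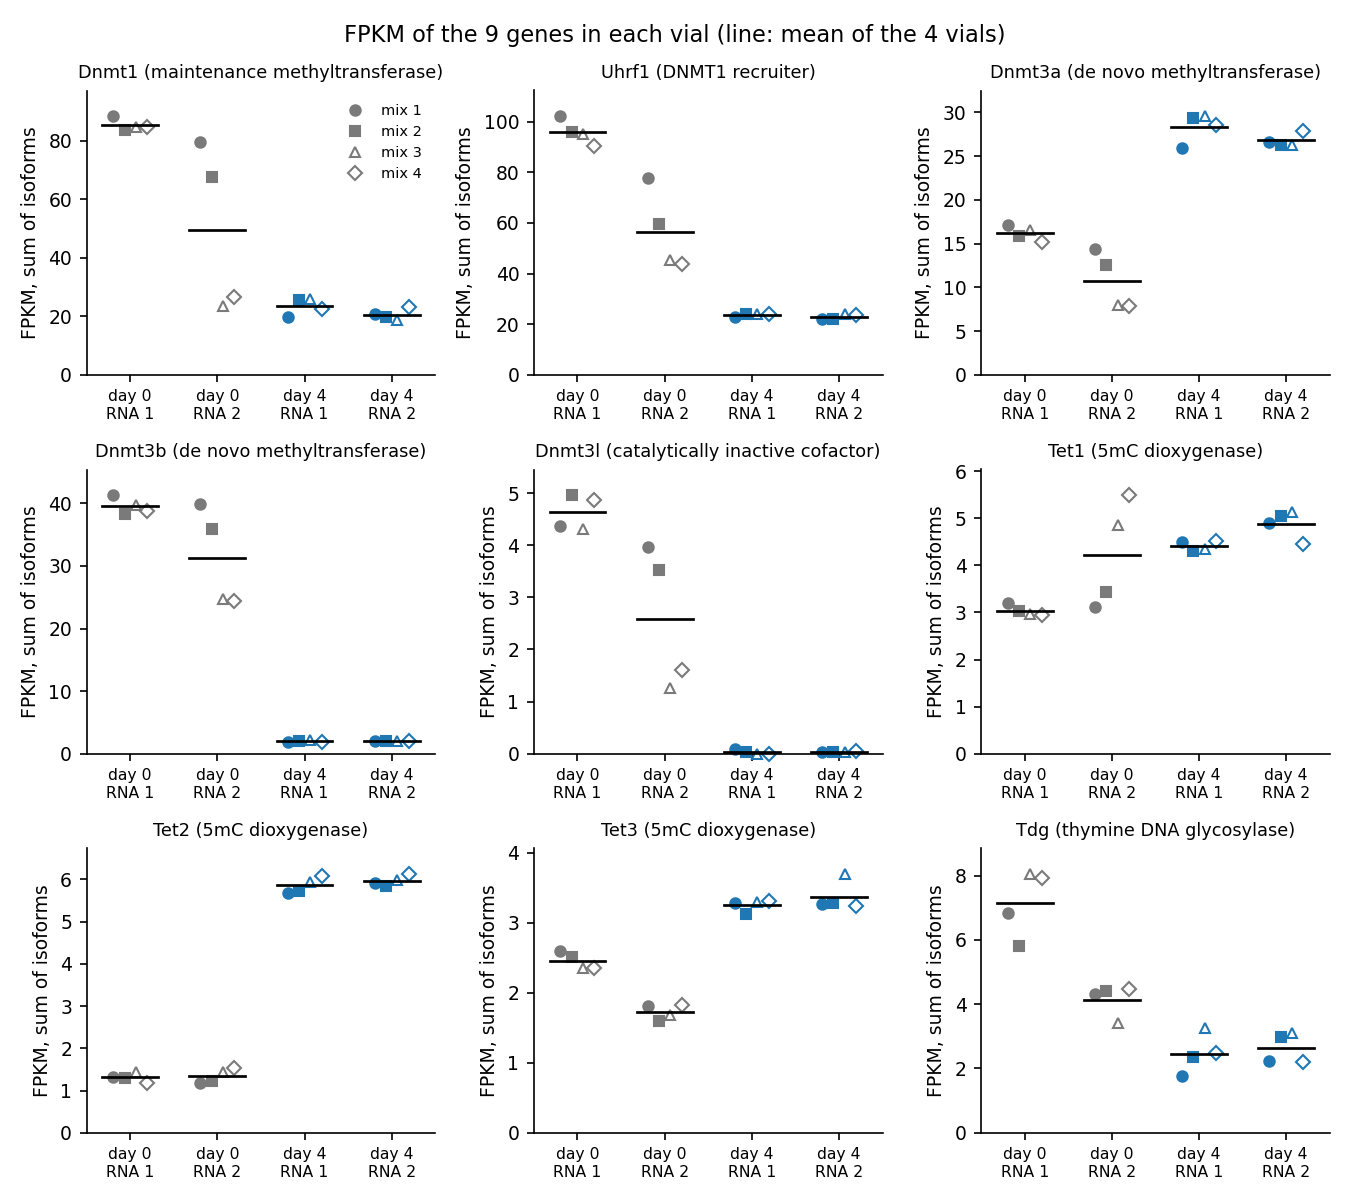
FPKM of each gene (vertical axes, sum of isoforms, from 0) in the 4 vials of each RNA sample (horizontal axes), with symbols for the mix, grey for day 0, blue for day 4 and a line at the mean of the 4 vials. Dnmt3b, Dnmt3l, Uhrf1 and Tdg lay lower in every day 4 vial than in any day 0 vial, and Dnmt3a, Tet2 and Tet3 higher. The vials of the days overlapped for Dnmt1 and Tet1. The vials of an RNA sample are parts of the same RNA and are not independent. The share of all genes without overlap between the days was not determined.

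Dnmt3b, a de novo methyltransferase of early embryonic cells, was among the most strongly lowered of the 9. Its 4 vials lay between 38.3 and 41.3 FPKM in day 0 RNA 1 (mean 39.6). In day 0 RNA 2 they were 39.9, 35.9, 24.6 and 24.4 FPKM in the order of the mixes (mean 31.2). In the day 4 RNAs they lay between 1.91 and 2.16 FPKM (mean 2.02) and between 1.97 and 2.09 FPKM (mean 2.01). Every day 4 vial was thus far below every day 0 vial, and the day 4 RNAs differed by less than their own vials did. Here and below, vials of an RNA sample are parts of the same RNA and not independent repeats. How many of all genes were without overlap between the days was not determined. The log2 difference was -4.06 ± 0.20 (SE, n = 2 RNA samples per day, limma adjusted p = 0.0046). It was -4.20 without the 2 vials and -3.52 ± 0.19 with the GC correction (adjusted p = 0.00106), and 1.62% of the genes in its GC group were as low or lower.

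Dnmt3l, which has no catalytic activity and stimulates DNMT3A and DNMT3B in germ cells and ES cells, was close to 0 at day 4. It lay between 4.32 and 4.96 FPKM in the vials of day 0 RNA 1. The vials of day 0 RNA 2 held 3.97, 3.52, 1.26 and 1.62 FPKM in the order of the mixes. At day 4 the highest of 8 vials held 0.088 FPKM and 2 vials were listed at 0. The groups did not overlap, although the mix 3 and mix 4 vials of day 0 RNA 2 were the lowest of day 0. Its log2 difference came to -4.74 ± 0.36 (limma adjusted p = 0.0063). Since the day 4 values lie below the pseudocount, this figure depends on it and ran from -2.12 to -6.32 over the alternatives. It was -5.0 ± 0.18 without the 2 vials and -4.32 ± 0.15 with the GC correction.

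Dnmt3a, the de novo methyltransferase that is also expressed in most somatic tissues, went the other way. Its vials lay between 15.2 and 17.1 FPKM in day 0 RNA 1, with a mean of 16.2. In day 0 RNA 2 they held 14.4, 12.6, 8.0 and 7.90 FPKM (mean 10.7). The means of the day 4 RNAs were 28.4 and 26.8 FPKM, with vials from 25.9 to 29.6. No day 4 vial reached down to the day 0 vials, of which the mix 3 and mix 4 vials of RNA 2 were again the lowest. The rise of 1.06 ± 0.25 on the log2 scale was at the edge of the threshold (limma adjusted p = 0.0490). It was 0.90 ± 0.12 without the 2 vials (adjusted p = 0.00707) and 1.33 ± 0.09 with the GC correction (adjusted p = 0.00145). The pseudocount of 1 FPKM, log2 values averaged over vials, no filter on low values, and eBayes without a trend or with the robust option each ended the call.

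The make-up of the DNMT3 family at the RNA level turned over between the days. In day 0 RNA 1 and RNA 2, Dnmt3b made up 65.5% and 70.1% of the summed FPKM of Dnmt3a, Dnmt3b and Dnmt3l, and Dnmt3a 26.8% and 24.1%. At day 4 Dnmt3a made up 93.3% and 92.9%, and Dnmt3b 6.65% and 6.98%. The ratio of Dnmt3a to Dnmt3b went from 0.41 and 0.343 to 14 and 13.3. This ratio was little touched by the vials that stood apart: it lay between 0.323 and 0.36 over the 4 vials of day 0 RNA 2. The family sum was 60.4 and 44.5 FPKM at day 0, then 30.4 and 28.9 FPKM at day 4. These shares were not tested on their own.

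Dnmt1, the maintenance methyltransferase, and Uhrf1, its partner at hemimethylated DNA, were the most abundant of the 9 at day 0. Dnmt1 lay between 83.5 and 88.3 FPKM in the vials of day 0 RNA 1. In day 0 RNA 2 its vials of mixes 1 and 2 held 79.4 and 67.6 FPKM and those of mixes 3 and 4 held 23.6 and 26.7 FPKM. At day 4 the vials lay between 19.6 and 25.9 FPKM in RNA 1 and between 18.7 and 23.1 FPKM in RNA 2. The mix 3 and mix 4 vials of day 0 RNA 2 therefore fell within or next to the day 4 range, and for Dnmt1 the days overlapped. The log2 difference was -1.56 ± 0.32 (limma adjusted p = 0.0355) on all vials. It was -1.85 ± 0.12 without the 2 vials and -0.94 ± 0.08 with the GC correction (adjusted p = 0.00233), and did not pass with no filter (adjusted p = 0.0926) or with log2 values averaged over vials (adjusted p = 0.0733), and 17.2% of genes in its GC group were as low or lower.

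Uhrf1 lay between 90.2 and 102 FPKM in day 0 RNA 1. In the vials of day 0 RNA 2 it held 77.9, 59.4, 45.3 and 43.6 FPKM in the order of the mixes. In the day 4 RNAs the means were 23.8 and 22.9 FPKM, with vials from 21.9 to 24.2. Here the groups did not overlap. The log2 difference was -1.65 ± 0.30 (limma adjusted p = 0.0292), -1.79 ± 0.19 without the 2 vials, and -1.10 ± 0.08 with the GC correction (adjusted p = 0.00179), and it did not pass with no filter (adjusted p = 0.0784). The ratio of Dnmt1 to Uhrf1 was 0.889 and 0.872 at day 0 and 0.984 and 0.897 at day 4. In the single vials of day 0 RNA 2 this ratio ranged from 0.521 to 1.14, wider than in any other RNA sample.

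Among the TET dioxygenases, which begin the removal of methylation, Tet2 rose and the others moved less. Tet2 lay between 1.19 and 1.44 FPKM in day 0 RNA 1 and between 1.18 and 1.53 FPKM in day 0 RNA 2. At day 4 it lay between 5.67 and 6.07 FPKM and between 5.83 and 6.12 FPKM. The groups were far apart and the RNA samples of a day were closer to each other than their vials. On the log2 scale Tet2 rose by 2.07 ± 0.20 (limma adjusted p = 0.00913), 2.15 ± 0.12 without the 2 vials and 1.87 ± 0.11 with the GC correction.

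Tet1, the most abundant TET gene at day 0, held 3.04 and 4.23 FPKM at day 0, then 4.41 and 4.88 FPKM at day 4. In day 0 RNA 2 its vials of mixes 1 and 2 held 3.12 and 3.43 FPKM, close to the range of 2.95 to 3.20 FPKM in RNA 1, but those of mixes 3 and 4 held 4.87 and 5.49 FPKM, the first within and the second above the day 4 range of 4.29 to 5.12 FPKM. The log2 difference of 0.36 ± 0.25 did not pass the test (limma adjusted p = 0.329). It passed without the 2 vials (0.54 ± 0.12, adjusted p = 0.0236) and was -0.0042 ± 0.09 with the GC correction (adjusted p = 0.973).

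Tet3, the TET gene of the oocyte and of differentiated cells, had mean levels of 2.45 and 1.73 FPKM at day 0, then 3.25 and 3.37 FPKM at day 4. All 8 vials of day 4, from 3.12 to 3.69 FPKM, lay above the 8 vials of day 0, from 1.59 to 2.59 FPKM. The log2 difference of 0.66 ± 0.27 did not pass (limma adjusted p = 0.136), nor did it without the 2 vials (adjusted p = 0.0627), and with the GC correction it was 1.13 ± 0.19 and passed (adjusted p = 0.0127). The summed FPKM of the 3 TET genes was 6.80 and 7.30 at day 0 and 13.5 and 14.2 at day 4. Within it the share of Tet2 was 19.4% and 18.4% at day 0 and 43.3% and 42.0% at day 4, while that of Tet1 was 44.6% and 57.9%, then 32.6% and 34.4%. These shares are of FPKM not corrected for GC content, in which the TET genes differ, and were not tested.

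Tdg, the glycosylase that removes oxidised methylcytosine, held 7.16 and 4.15 FPKM at day 0, then 2.46 and 2.63 FPKM at day 4. The lowest day 0 vial held 3.40 FPKM and the highest day 4 vial 3.26 FPKM, so the days did not overlap but came close. The log2 difference of -1.07 ± 0.34 did not pass on all vials (limma adjusted p = 0.0841). It passed without the 2 vials (adjusted p = 0.0339), with the GC correction (-1.16 ± 0.27, adjusted p = 0.0319) and with the RNA replicate number as a block (adjusted p = 0.0157).

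**Figure D3:**
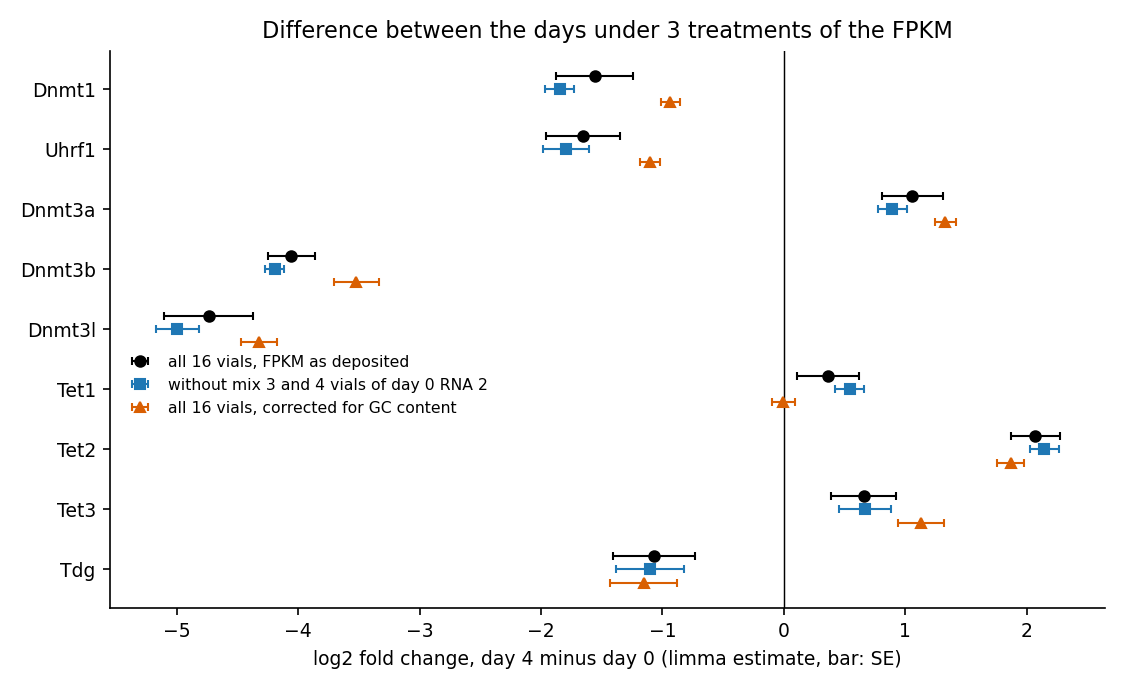
Log2 fold change of day 4 minus day 0 (horizontal axis) for each of the 9 genes, as limma estimates with bars of 1 SE, on all 16 vials (black), without the mix 3 and mix 4 vials of day 0 RNA 2 (blue) and with FPKM corrected for GC content (orange). The sign was the same in all 3 for 8 genes, and for Tet1 the estimates were 0.36, 0.54 and -0.0042.

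On FPKM not corrected for GC content, the order of the 9 levels changed as follows. At day 0 Uhrf1 (mean 76.2 FPKM) and Dnmt1 (67.2 FPKM) stood first with overlapping RNA samples, then Dnmt3b (35.4 FPKM) and Dnmt3a (13.4 FPKM). Tdg, Tet1 and Dnmt3l followed at 5.65, 3.63 and 3.61 FPKM, neighbours that did not differ beyond the spread of their RNA samples, and Tet3 (2.09 FPKM) and Tet2 (1.33 FPKM) came last. At day 4 Dnmt3a (27.6 FPKM) was first, followed by Uhrf1 and Dnmt1 (23.3 and 22 FPKM, overlapping). Tet2, Tet1, Tet3, Tdg and Dnmt3b then lay at 5.91, 4.65, 3.31, 2.55 and 2.02 FPKM, each without overlap with the next, and Dnmt3l was last at 0.0336 FPKM.

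At the isoform level, 30 of the 32 transcripts were tested, since the Dnmt3l transcripts NM_001081695 and NM_001284199 were at 0 in all libraries. Of the 30, 2 were higher and 10 lower at day 4 (limma, adjusted over 28213 transcripts, of which 10.2% were called higher and 8.67% lower). Without the mix 3 and mix 4 vials of day 0 RNA 2 these numbers were 3 and 16, beside 22.2% and 28.9% of all transcripts. With the GC correction they were 3 and 14, beside 18.6% and 17.3%. With the RNA number as a replicate block they were 2 and 18, beside 14.7% and 20.9%. Leaving out day 0 RNA 1 or either day 4 RNA gave 0 calls by limma among all transcripts (11394, 5766 and 5476 at an unadjusted p of at most 0.05). RSEM, which made the values, divides reads shared by isoforms by expectation maximisation, so the level of an isoform is less certain than that of its gene.

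For Dnmt3a the short transcript NM_153743 carried most of the signal and the rise. It held 12.5 and 9.82 FPKM in the day 0 RNAs and 25.8 and 24.9 FPKM in the day 4 RNAs, with single vials between 7.67 and 13.4 FPKM at day 0 and between 23.9 and 26.6 FPKM at day 4. On the log2 scale it rose by 1.19 ± 0.18 (limma adjusted p = 0.0328), by 1.05 ± 0.07 without the 2 vials and by 1.42 ± 0.07 with the GC correction, and it did not pass with no filter on low values (adjusted p = 0.0535). The long transcript NM_001271753, from the CpG-rich upstream start shown above, held 3.53 and 0.89 FPKM at day 0, then 2.58 and 1.90 FPKM at day 4, which did not pass (log2 difference 0.29 ± 0.74, adjusted p = 0.787). In the mix 3 and mix 4 vials of day 0 RNA 2 it held only 0.177 and 0.223 FPKM, against 2.1 and 1.06 FPKM in mixes 1 and 2. The other long transcript, NM_007872, was above 0 in 1 of 16 vials (0.852 FPKM). The share of NM_153743 in the gene was 76.9% and 91.7% at day 0 and 90.9% and 92.9% at day 4, and its ratio to the rest of the gene did not pass the test (log2 difference 0.94 ± 0.68, adjusted p = 0.415).

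For Dnmt3b, which is known for many splice forms with and without parts of its catalytic domain, NM_001122997 (860 residues coded) was the main isoform on both days. It held 24.9 and 18.2 FPKM at day 0, then 0.835 and 0.928 FPKM at day 4 (log2 difference -4.45 ± 0.25, limma adjusted p = 0.0155). It was -4.61 ± 0.12 without the 2 vials and -3.88 ± 0.20 with the GC correction. Its share of the gene was 62.9% and 58.2% at day 0 and 41.3% and 46.1% at day 4. Another 4 transcripts, NM_001003963, NM_001271746, NM_001271747 and NM_010068, lay between 2.74 and 3.84 FPKM in the day 0 RNAs and all passed as lower. NM_010068 held 9.72% and 8.77% of the gene at day 0 and 18.1% and 18.4% at day 4. These day 4 means are uncertain, since its share ran from 0% to 48.57% over the vials of day 4 RNA 2. The share of NM_001271747 was 8.72% and 10.89% at day 0, then 37.94% and 17.73% at day 4. Those of NM_001003963 and NM_001271746 were lower at day 4 in both RNA samples. In the remaining 4, no RNA sample was above 0.386 FPKM. Of these NM_001003960 passed as lower on all vials. The other 3 (NM_001003961, NM_001271744 and NM_001271745) passed with the replicate block (adjusted p from 0.02 to 0.0287). NM_001271745 also passed without the 2 vials (limma adjusted p = 0.0368).

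For Dnmt3l, NM_001284197 (3.09 and 1.53 FPKM at day 0) and NM_019448 (1.5 and 0.99 FPKM) were both listed at 0 in all 8 vials of day 4. The remaining day 4 signal of the gene was assigned to NM_001284200, a short transcript coding for 126 residues that starts inside the gene. It held 0 and 0.0522 FPKM at day 0, then 0.0293 and 0.038 FPKM at day 4.

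The gene sums of Dnmt1 and Uhrf1 were steadier than the isoform values behind them. In the 4 vials of day 0 RNA 1 the Dnmt1 sum had a coefficient of variation of 2.48%. In the same vials NM_001199432 held 4.54, 23.7, 35.9 and 26.6 FPKM and NM_010066 held 39.8, 14.5, 6.48 and 9.55 FPKM in the order of the mixes, so that 1 was high where the other was low. These vials are parts of 1 RNA, so this spread is technical. NM_010066 and NM_001199431 match the same GENCODE transcript, with the start at 20952979 on the minus strand of chromosome 9 and 1620 residues coded, while NM_001199432 starts at 20959888, 6909 bases upstream, and codes for 1501 residues. In day 0 RNA 1 NM_001199431 varied less (coefficient of variation 6.1%). Its means were 42.9 and 22.9 FPKM at day 0, then 10.4 and 8.91 FPKM at day 4. In day 0 RNA 2 its vials held 39.2, 31.05, 8.32 and 13.05 FPKM in the order of the mixes (coefficient of variation 63.8%). Of these the mix 3 vial lay below, and the mix 4 vial within, the day 4 range of 8.38 to 13.15 FPKM. Of the 4 isoforms NM_001199432 passed on all vials (22.7 and 21.5, then 9.60 and 8.88 FPKM, log2 difference -1.25 ± 0.15, limma adjusted p = 0.0226), with single day 0 vials from 4.17 to 38.8 FPKM. This call was lost on mixes 1 and 2 (adjusted p = 0.224), with log2 values averaged over vials (-0.84, adjusted p = 0.0671) and with 16 libraries in correlated blocks (-0.84, adjusted p = 0.438). It held without the 2 vials (-1.64, adjusted p = 0.0174) and with the GC correction (-0.62, adjusted p = 0.0418). With the RNA number as a replicate block, NM_001199431 (adjusted p = 0.0137) and NM_010066 (adjusted p = 0.0376) passed as well.

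Uhrf1 showed the same kind of spread in the vials that stood apart. NM_010931 held 28.6 and 16.7 FPKM in mixes 1 and 2 of day 0 RNA 2 but 0.993 and 2.60 FPKM in mixes 3 and 4. NM_001111080 held 6.42 and 6.76 FPKM in the first pair of vials and 29.6 and 18.3 FPKM in the second. The isoform NM_001111078 was the most even, with 37.3 and 25.6 FPKM at day 0, then 12.9 and 12.9 FPKM at day 4. Even so, its vials in day 0 RNA 2 ran from 12.45 to 37.1 FPKM. The lowest of them, of mix 3, lay within the day 4 range of 11.1 to 15.1 FPKM. NM_001111078 passed on all vials (log2 difference -1.25 ± 0.24, limma adjusted p = 0.0453), without the 2 vials (adjusted p = 0.00369) and with the GC correction (-0.68, adjusted p = 0.0223). The pseudocount of 1 FPKM, no filter on low values, log2 values averaged over vials, and eBayes without a trend or with the robust option each ended this call. With the replicate block, NM_001111079 (adjusted p = 0.0255) and NM_010931 (adjusted p = 0.0173) passed as well. Both also passed by limma without the 2 vials (adjusted p = 0.0140 and 0.0129). With the GC correction NM_001111079 passed (adjusted p = 0.0248) and NM_010931 did not (adjusted p = 0.116). Tdg, Tet1, Tet2 and Tet3 had 1 dominant listed transcript each (NM_172552, NM_001253857, NM_001040400 and NM_183138), although the second Tdg transcript NM_011561 took 18.2% of the gene in day 0 RNA 2 and 26.7% in day 4 RNA 2 and was at 0 in both RNA 1 samples. The main Tdg transcript passed by limma with the replicate block (adjusted p = 0.0492) and without the 2 vials (adjusted p = 0.0372). It did not pass on all vials without the block (adjusted p = 0.151) or with the GC correction (adjusted p = 0.104).

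**Figure D4:**
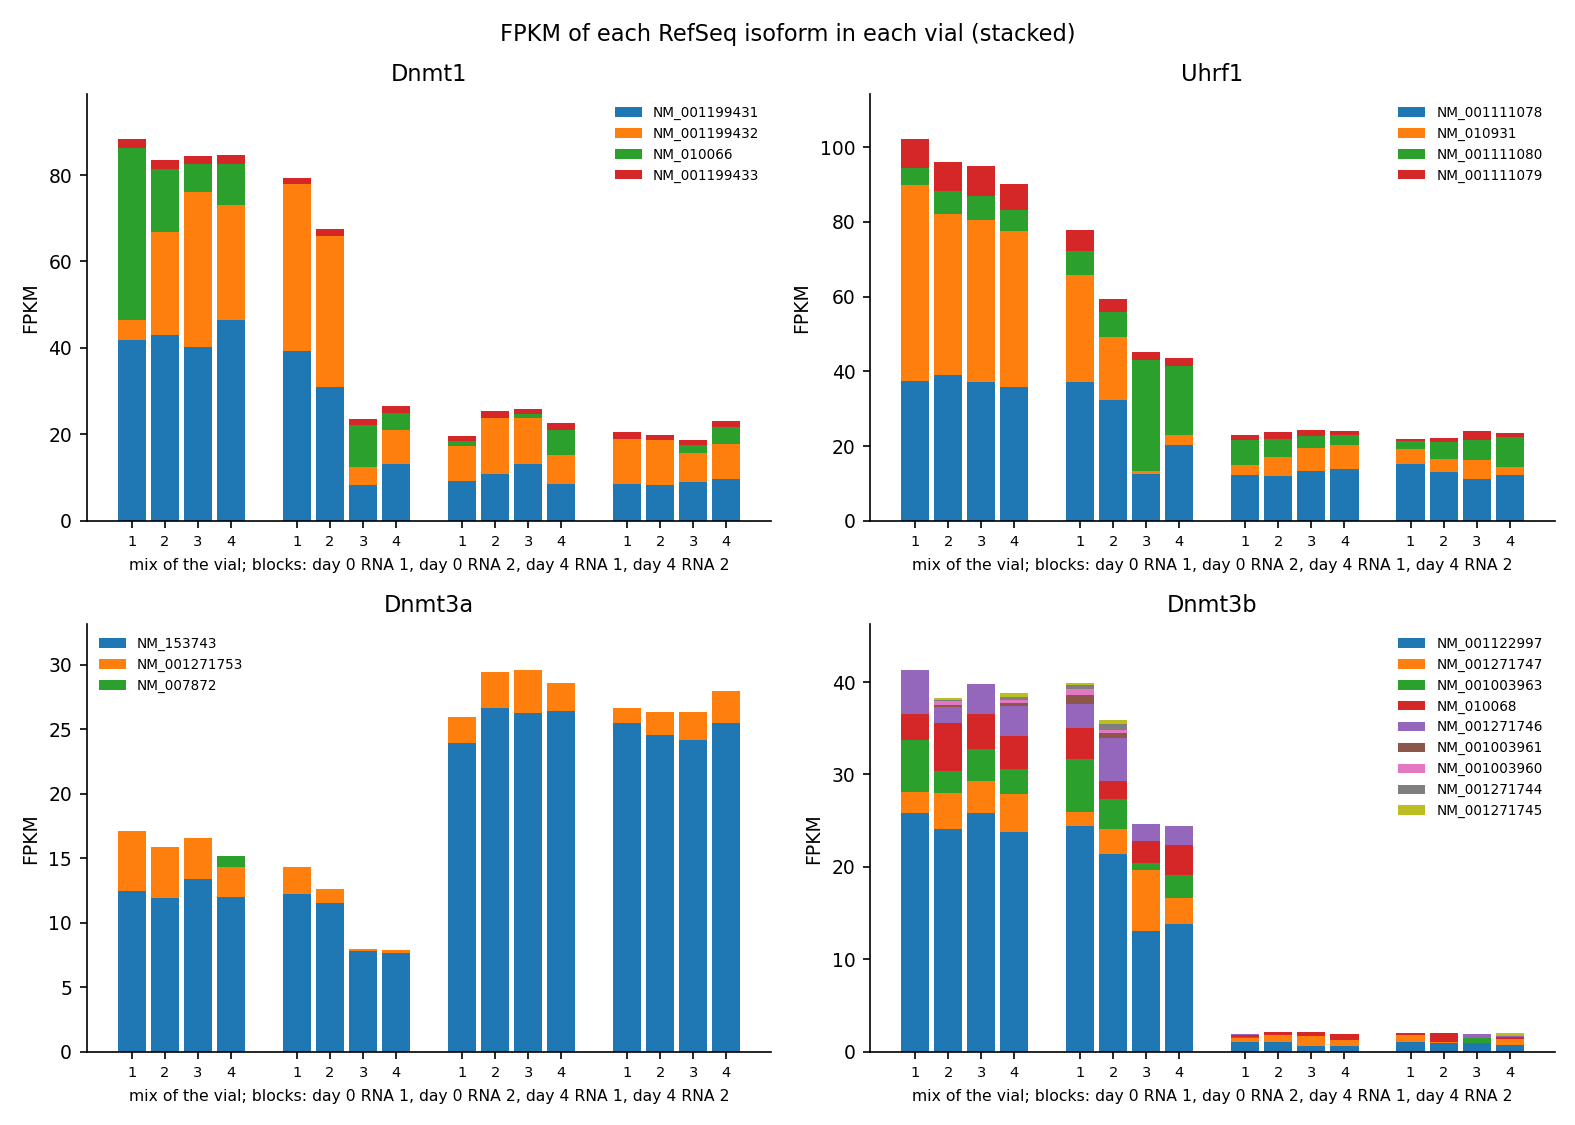
FPKM of each RefSeq isoform (stacked colours, vertical axes from 0) of Dnmt1, Uhrf1, Dnmt3a and Dnmt3b in each of the 16 vials, in blocks of 4 mixes per RNA sample (horizontal axes). The height of the Dnmt1 bars in day 0 RNA 1 varied by 2.48% (coefficient of variation) while its NM_001199432 part ran from 4.54 to 35.9 FPKM.

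Whether an isoform changed by another factor than the rest of its gene was asked with the log2 ratio of each isoform to the others. Of 12127 ratios tested over all genes, 0% were called and 0 of the 28 of these genes (limma). At an unadjusted p of at most 0.05 there were 3357 of all ratios and 13 of the 28. Without the mix 3 and mix 4 vials of day 0 RNA 2, 8 of the 28 were called, beside 21% of all ratios. They included a lower ratio of NM_001122997 of Dnmt3b (-1.02, adjusted p = 0.0433) and higher ratios of NM_010068 of Dnmt3b (1.54, adjusted p = 0.0439) and of NM_001199433 of Dnmt1 (1.58, adjusted p = 0.0348). With the GC correction on all vials 0 of the 28 were called. For transcripts near 0 the ratio rises with the pseudocount when the gene falls, which holds for several of Dnmt3b and Dnmt3l.

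The genes that act with these proteins were taken from lists of related genes, whose counts stand beside the shares of all genes given above: 16% higher and 14.5% lower on all vials, 27.1% and 33.6% without the 2 vials, and 27.5% and 24.3% with the GC correction. In the methyl donor cycle, which supplies S-adenosylmethionine, 0 of 12 were higher and 6 lower, with a median log2 difference of -1.63 (all genes -0.02). The largest were the folate enzymes Shmt2 (56.1 and 21.6 FPKM to 4.42 and 2.94 FPKM), Mthfd1 (111 and 65.5 to 14.7 and 13.5 FPKM) and Shmt1 (107 and 64.1 to 21 and 17 FPKM). Without the 2 vials, and likewise with the GC correction, 1 of the 12 was higher and 10 lower, and the median was -1.88 and -1.09. Among 15 DNA replication genes 0 were higher and 6 lower (12 lower without the 2 vials, 13 with the GC correction), led by the helicase subunits Mcm5 (161 and 81.6 to 37.9 and 30.2 FPKM) and Mcm2 (120 and 58.3 to 28.5 and 23.8 FPKM) and the loading factor Cdc6. Dnmt1 and Uhrf1 are genes of cycling cells themselves. The part of proliferation in their values was not tested.

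Of 18 recruitment and heterochromatin partners of the DNMT enzymes, 1 was higher and 3 were lower, the latter a share close to the 14.5% of all genes. Without the 2 vials 4 were higher and 10 lower, and with the GC correction 3 and 8. The 3 lower on all vials were Prdm14, Suv39h1 and Dppa3. Prdm14, a repressor of de novo methyltransferases in ES cells, went from 4.05 and 3.44 to 0.0973 and 0.0683 FPKM (log2 difference -4.40). The histone methyltransferase Suv39h1 had a log2 difference of -1.81. Dppa3, which protects methylcytosine in maternal DNA from oxidation, had -1.33. The higher gene was the deacetylase Hdac2 (103 and 164, then 280 and 312 FPKM). Of the 9 genes listed as TET partners or suppliers of 2-oxoglutarate, 3 were higher and 3 lower (the same counts without the 2 vials, 4 and 4 with the GC correction). Wt1, a zinc finger protein that binds TET2 and TET3, went from 0.534 and 0.529 FPKM to 75.7 and 80.0 FPKM, and the transcription factor genes Hhex and Nanog were lower (-2.78 and -2.23). The others that passed were Cxxc4 (2.06) and Idh1 (0.87), which were higher, and Idh3a (-1.20), which was lower.

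Of 8 readers of methylated CpG, 3 were higher and 1 lower (4 and 2 without the 2 vials and with the GC correction). Mbd2 rose by 1.17 and Zbtb33 (Kaiso) by 1.68 on the log2 scale, while Mbd3 fell by 3.13, and with the GC correction Mbd3 fell by 1.17 and Mbd2 did not pass (2.04, adjusted p = 0.0627). Of 17 base excision and deaminase genes 3 were higher and 4 lower on all vials, 3 and 12 without the 2 vials, and 3 and 7 with the GC correction. The uracil glycosylase Smug1, which shares substrates with TDG, went from 5.21 and 4.83 FPKM to 44.0 and 42.6 FPKM (log2 difference 3.09, limma adjusted p = 0.0046), the opposite direction to Tdg. Gadd45g (22.9 and 5.83 to 0.409 and 0.201 FPKM) and Apobec2 (4.34 and 2.82 to 0.138 and 0.109 FPKM) were lower, as were Apobec3 (-1.68) and the ligase gene Lig3 (-0.85). Gadd45a (1.29) passed as higher.

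**Figure D5:**
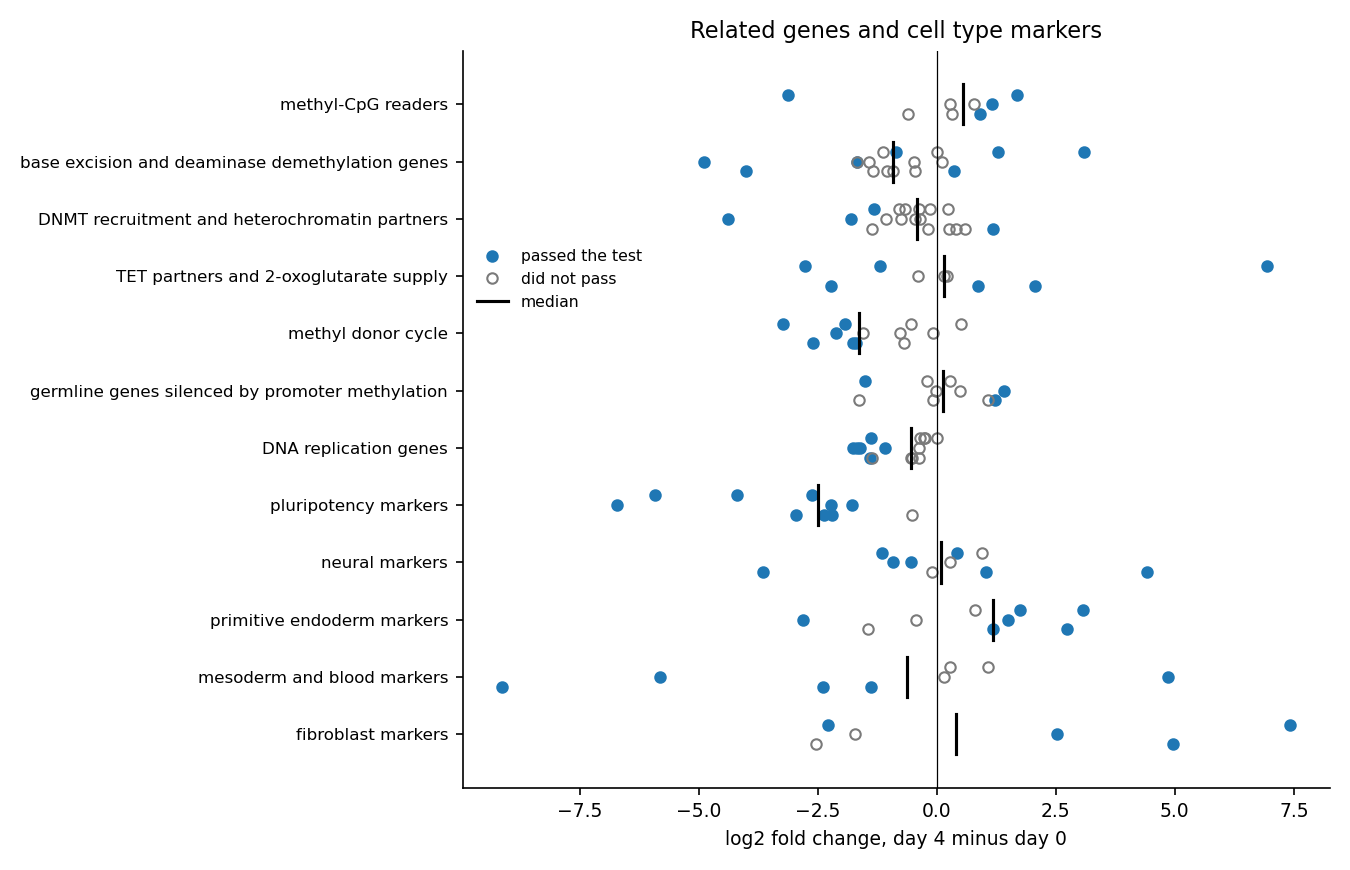
Log2 fold change of day 4 minus day 0 (horizontal axis) for each gene of 12 lists (vertical axis), filled where the gene passed the test on all vials and open where it did not, with a line at the median of the list. The medians of the methyl donor cycle and of the pluripotency markers lay at -1.63 and -2.50.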

How the data were processed

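FPKM were analysed in 16 libraries from 4 RNA samples. The authors mapped the strand-specific paired-end reads to mm10 RefSeq transcripts and spike-ins with Bowtie2 2.1.0, estimated abundances with RSEM 1.2.18 and deposited FPKM scaled by TMM. The study reports the reads of each library. No read counts per transcript were used here, so the number of fragments behind a value is unknown and no counting error is given. All 16 columns were assigned by title (0 without a sample), and the RNA sample of each vial follows the sample table of the study. Days come from the labels. The 49 spike-in rows were left out, and 99.2% of RefSeq rows matched a symbol.

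Vials were averaged, FPKM of isoforms summed per gene, and log2(FPKM + 0.1) fitted with limma 3.58.1 in R 4.3.3 (lmFit, eBayes with a trend, no replicate term), 2 RNA samples against 2, at gene, isoform and isoform ratio level. Features at 0 in all libraries were left out, and calls needed a Benjamini-Hochberg adjusted p of at most 0.05 over all features. Tables and plots used Python 3.11.15, pandas 2.3.3, numpy 2.4.6 and matplotlib 3.10.9. The fits were also run on simulated data with the same spread in every RNA sample. In these data the day 0 RNAs differed more than the day 4 RNAs for most of the 9 genes. The simulation therefore does not measure how the fits perform here. The RNA numbers are taken as repeats of the whole procedure that the study describes and so as pairs. The difference between RNA 1 and RNA 2 had r = 0.768 between the days over 11584 genes. This r includes the mix 3 and mix 4 vials of day 0 RNA 2 and has no GC correction, so it cannot show by itself that the RNA numbers are pairs. The genes, lists and alternatives were chosen with earlier results of these data known. Leaving out the mix 3 and mix 4 vials of day 0 RNA 2 and the GC correction, alone and with the replicate block, were added after the data were examined. The GC correction divided each library by its median deviation from the mean over libraries in bins of the GC content of GENCODE transcripts. Genes named are the 9 with their isoforms, the 3 called genes with the largest change per list, and the 3 genes with the most similar profile for each of the 3 most changed members. Other called list genes were named after their values were seen, and some are not reported here.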

Additional observations from a re-analysis of the deposited data

Results flagged for a closer look

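In day 4 RNA 2 the mix 3 vial held 3.69 FPKM of Tet3, the highest of the 8 vials of that day, and the next held 3.31 FPKM. This gap was 0.665 of the range of the 8 vials, above Dixon's 95% critical value for 8 samples. It was 1 of 18 groups examined (9 genes on 2 days), and about 1 in 20 such groups is marked by chance. The 8 vials come from 2 RNA samples and are not independent.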

How the results depend on the processing

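Over 20 alternatives, 3 of them chosen after the data were seen, the log2 difference of the 9 genes kept its direction except for Tet1, which was -0.0042 with the GC correction, with and without the replicate block. Dnmt3b passed under 18 of 20 alternatives, Dnmt3l and Tet2 under 17, Uhrf1 under 16, Dnmt1 under 15, Dnmt3a under 12, Tdg under 7, Tet3 under 4 and Tet1 under 2. Of the isoforms, NM_001199433 was 0.21 with the GC correction, with and without the block, NM_010066 was 0.43 without the mix 3 and mix 4 vials of day 0 RNA 2, and NM_001271753 was -0.096 without these vials, -0.44 on mixes 1 and 2 only and from -0.65 to 1.22 with 1 RNA sample left out (-0.65 without day 0 RNA 2). None of these passed.

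The number of genes called higher and lower was 5552 and 6880 without the 2 vials, 5177 and 6424 on mixes 1 and 2, 1044 and 367 on mix 4 (where Dnmt3b alone passed), and 5644 and 4984 with the GC correction. It was 2092 higher at a mean of at least 1 FPKM, 1644 lower with no filter and 4580 lower with 16 libraries in correlated blocks. The replicate block gave 5961 lower and added Tdg, and together with the GC correction the block gave 6084 and 5562. Leaving out 1 RNA sample gave 0 to 3670 higher and 0 to 5552 lower, the 0 coming from either day 4 sample and the highest counts from leaving out day 0 RNA 2. The transcripts called were 6264 and 8159 without the 2 vials, 5667 and 7155 on mixes 1 and 2, 225 and 73 on mix 4, 5256 and 4882 with the GC correction (5270 and 5275 with the block) and 5500 and 5409 in correlated blocks. Lower transcripts were 1385 with no filter, 1462 with log2 values averaged and 5898 with the replicate block. Leaving out 1 RNA sample gave 0 to 3048 higher and 0 to 4747 lower transcripts, where either day 4 sample or day 0 RNA 1 gave 0. Isoform ratios called were 1238 and 1311 without the 2 vials, 779 and 829 on mixes 1 and 2, 1423 and 1636 in correlated blocks and 400 and 510 with a pseudocount of 1 FPKM. With fewer RNA samples or vials the spread is estimated from fewer values, and otherwise the cause was not tested.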

Other observations

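Of 10 germline genes known to be silenced by promoter methylation, 2 were higher at day 4 (Dazl and Asz1), 1 was lower (Ddx4) and 7 did not pass. These counts were close to the shares of all genes, 16% higher and 14.5% lower. Without the mix 3 and mix 4 vials of day 0 RNA 2 the counts were 4 higher and 2 lower, beside 27.1% and 33.6% of all genes. With the GC correction they were 3 and 3, beside 27.5% and 24.3%. Dazl held 0.092 and 0.229 FPKM at day 0, then 0.59 and 0.556 FPKM at day 4, and Asz1 held 0 and 0.012 FPKM, then 0.109 and 0.196 FPKM. Ddx4 held 2.37 and 3.44 FPKM at day 0, then 0.786 and 1.11 FPKM at day 4. For 6 of the 10 no RNA sample reached 1 FPKM, and the median log2 difference was 0.12.

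The genes whose log2 profile over the 16 libraries was most like that of the most changed members, of 8269 genes with a mean of at least 5 FPKM, are given as a description, since the libraries fall into 2 days. They were Sprr2a1, Sprr2a2 and Zc3hav1 for Dnmt3b (Pearson's r from 0.999 to 1), where the near-identical copies Sprr2a1 and Sprr2a2 have the same values in the table. For Dnmt3l they were Ddx31, Nkx1-2 and Fgf3 (r = 0.997 to 0.995), and for Tet2 they were Ednrb, Prkra and Tsc22d1 (r = 0.999 to 0.998). Zc3hav1 held 35.5 and 29.6 FPKM at day 0, then 5.29 and 5.29 FPKM at day 4, and Ednrb 1.17 and 1.17 FPKM, then 22.3 and 23.0 FPKM.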
